A study of Rattus norvegicus with 6 samples.

Results

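The 10 genes described here encode receptors through which cells read lipids, bile acids, vitamin D and foreign compounds. They are Ppara, Ppard, Pparg, Rxra, Nr1h3, Nr1h4, Nr1i2, Vdr, Hnf4a and Ahr. They were chosen by name for this role, with no threshold on their values, but with earlier results of these data known. The study had already reported Ppara as higher in the congenic strain. Counts of receptors set beside those of all genes are therefore a description. Every array probe whose accession matched 1 of the 10 genes was taken. This gave 12 of the 23997 probes with a deposited value, and 10 of the 12418 genes with a symbol. Of the 10, 9 belong to the nuclear receptor family. Ahr, the aryl hydrocarbon receptor, is activated by a ligand but is a factor of the basic helix-loop-helix PAS family, so the group is called here by its ligands.

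Colon RNA was compared between 3 male rats of the S.LEW congenic strain, called C1, C2 and C3, and 3 male rats of the S strain, called S1, S2 and S3. Each rat was read on 1 single-color Agilent array. S is the Dahl salt-sensitive rat (SS/Jr), a hypertensive inbred line, while S.LEW(10)x12x2x3x5, the congenic line, holds a short piece of Lewis (LEW) genome in the S background. All 6 rats ate a low salt diet and had azoxymethane (AOM), a carcinogen of the colon, injected into the peritoneum in 2 weekly doses of 15 mg per kg that began at 6 weeks of age. The colons were taken at 30 weeks. No array of a rat without AOM was analyzed here, so every difference is between strains that were both exposed, and the share of tumor in each piece of colon was not measured on the arrays.

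Many nuclear receptors bind DNA in pairs with a retinoid X receptor such as Rxra and switch genes on when a small fat-soluble molecule enters their pocket. The peroxisome proliferator-activated receptors (PPARs) respond to fatty acids, with Ppara known for fatty acid oxidation and ketone production, Pparg for fat storage in adipocytes and for its high level in colon epithelium, and Ppard for fuel use in many tissues. Nr1h3 (LXR alpha) reads oxysterols, Nr1h4 (FXR) bile acids and Nr1i2 (PXR) drugs and other foreign compounds. Vdr is the receptor of vitamin D, Hnf4a helps to keep gut and liver epithelium differentiated, and Ahr binds planar aromatic compounds, among them indoles made by gut bacteria.

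All 12 probes were well above background on all 6 arrays, so that no receptor needed a bound in place of a value. The median spot intensity was 273, 214 and 291 on the arrays of C1, C2 and C3 and 594, 219 and 445 on those of S1, S2 and S3, before normalization. The number of arrays, 3 per strain, limits the precision of each value, and an exact permutation test of 1 gene cannot give a p below 0.10. The scanner headers gave a pair of scan dates, 1 shared by C1 and the 3 S rats and the other by C2 and C3. Arrays that share a scan date are called slide 1 and slide 2 here, in that order. No slide label was read. A fit with the slide as a block therefore compares C1 alone with the S rats, and its value is the same as the difference within slide 1.

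The rats of the S strain were not alike. Across the probes the array of S2 had a Pearson correlation of 0.900 with S1 and 0.937 with S3, against 0.967 to 0.976 with the congenic arrays, while S1 and S3 gave 0.980. Each receptor is therefore given with and without S2. S2 was picked out from these same values as the S rat nearest the congenic rats, so leaving it out tends to widen the strain difference. Over all probes, the count with an adjusted p under 0.05 from limma went from 0 to 5553 without S2. Every p without S2 below is thus a description and not a fair test of the strains. Cell type markers show where S2 differs. The 7 lymphoid markers with a value summed to a log2 signal of 10.91, 10.56 and 10.62 in C1 to C3 and 16.34, 10.77 and 15.83 in S1 to S3. S2 thus stood with the congenic rats for lymphoid genes. Of the 7, 5 were called lower in the congenic strain, at the cut-offs given with the receptors below, against 2.62% of all genes. Cd3e, Cd2, Cd79a, Cd79b and Ms4a1 had no value in the table, and Ccl19 was well above background on 4 arrays.

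Epithelial markers were present at high level on every array, as the label of colon requires. The 10 with a value (Cdx1 had none) summed to 18.02, 17.83 and 17.64 in C1 to C3 and 17.00, 17.19 and 16.95 in S1 to S3 on the log2 scale. All S rats, S2 included, lay below all congenic rats in this sum, and 10 of 10 markers had a log2 fold change above 0, with a median of 0.80. Of these 8 had an unadjusted p under 0.05 from limma, all higher, and 1 was called higher. Of all 12418 genes, 6575 had a log2 fold change above 0, 10.1% had such a p on the higher side and 3.79% were called higher. The most abundant, Lgals4, a galectin of gut epithelium, read 16.63, 16.37 and 16.42 against 15.83, 15.77 and 15.40. Smooth muscle markers (19.05, 19.12 and 19.22 in C1 to C3 and 17.44, 19.30 and 18.51 in S1 to S3) were lowest in S1, and S2 lay with the congenic rats, and 0 were called. Without S2, 5 of the 7 measured were called higher and 0 lower, against 11.3% and 8.27% of all genes. Because whole tissue was read, more RNA of a receptor per cell and more cells that express it cannot be told apart in any value below, and the part of the epithelial difference in the receptor differences was not tested.

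**Figure D1:**
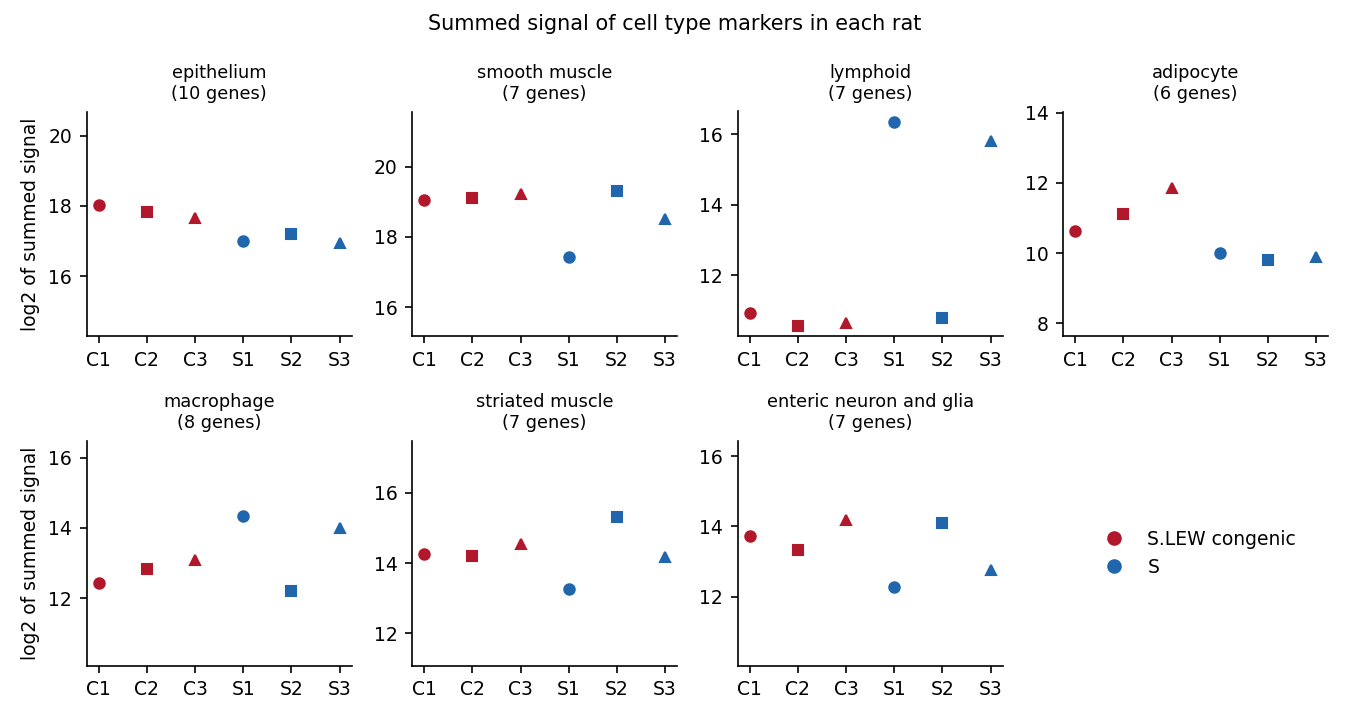
Log2 of the summed signal of each cell type marker list (vertical axis) in each rat (horizontal axis), with the number of genes summed, every panel on an axis of the same span; red, S.LEW congenic, and blue, S. The lymphoid sum was 16.34 in S1 and 15.83 in S3 but 10.77 in S2, while the epithelial sum was lower in all 3 S rats than in all 3 congenic rats.

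Of the 10 receptors, 4 were called higher in the congenic rats (Ppara, Pparg, Nr1h4 and Vdr) and 0 lower. A gene is called here at the cut-offs of the study's methods, an unadjusted p under 0.05 from limma with at least a 2-fold change, on its probe of highest mean signal. Of all 12418 genes, 3.79% were called higher and 2.62% lower. Leaving the fold aside, 5 of 10 receptors had an unadjusted p under 0.05, all of them higher, against 10.1% of genes higher and 4.4% lower. In 5 of 10 every congenic rat was above every S rat, and in 0 below, against 14.2% and 5.01% of all genes. The median log2 fold change of the receptors was 0.66 and that of all genes 0.03.

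No receptor passed adjustment over the whole array. Limma gave 0 of 23997 probes (0%) an adjusted p under 0.05, with 3115 probes under an unadjusted 0.05 and 2594 by the methods' t-test, and the lowest adjusted p of a receptor was 0.223. Leaving out S3 gave 2 receptors called higher and 0 lower, where 2.38% of all genes were called higher and 0.878% lower. Leaving out S2 gave 5 higher and 0 lower, where 11.3% of all genes were called higher and 8.27% lower. Without S2, 6 of 10 receptors had an adjusted p under 0.05 from limma, all higher in the congenic rats, where 14.1% of all genes were higher and 11.6% lower on the same rule. Those 6 were Pparg, Rxra, Nr1h4, Nr1i2, Vdr and Hnf4a. Since S2 was picked out from these same values, the counts without S2 are a description only.

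**Figure D2:**
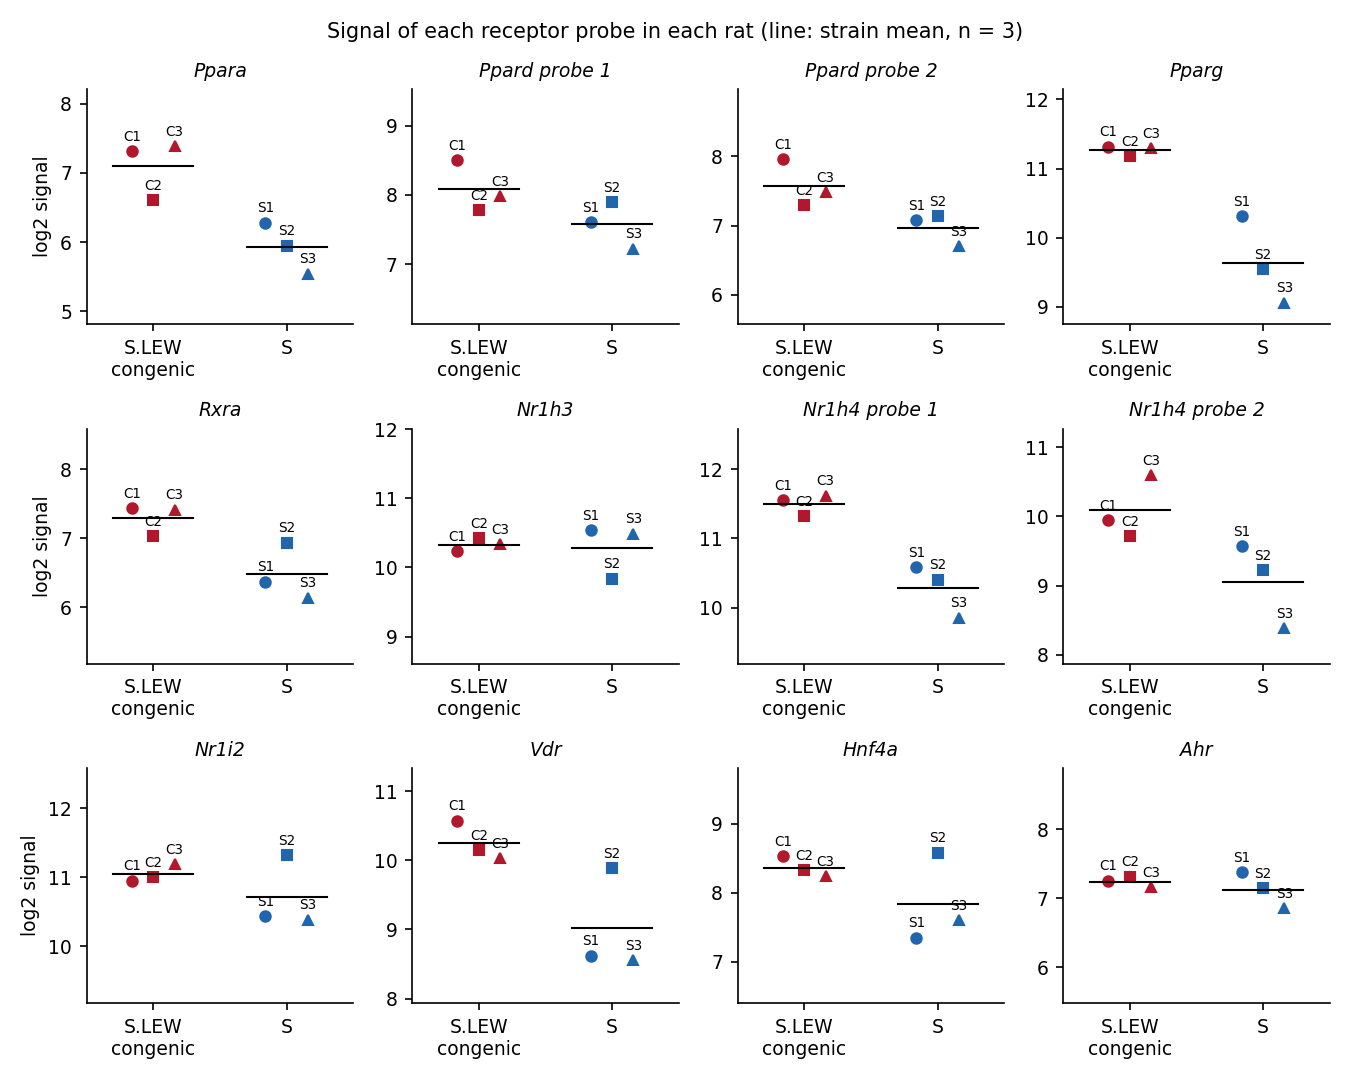
Log2 signal of the 12 probes (vertical axis, the same span in every panel) in the congenic rats (red) and S rats (blue), with a line at the mean of 3. At Pparg and at probe 1 of Nr1h4 all 3 S rats lie clear of the congenic rats, whereas at Nr1i2 and Hnf4a S2 is the highest of the 6 rats.

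Ppara, the receptor that turns on fatty acid oxidation, had a log2 signal of 7.32 for C1, 6.60 for C2 and 7.39 for rat C3, against 6.28 for S1, 5.95 for S2 and 5.55 for rat S3. The lowest congenic rat, C2, was above the highest S rat, S1, so the strains did not overlap. The log2 fold change (congenic minus S, with its standard error, SE) was 1.18 (SE 0.30, adjusted p = 0.275 from limma), with a 95% confidence interval from 0.45 to 1.91. It was 1.19 without S2 (adjusted p = 0.0593 from limma) and 1.39 with the slide as a block. The fold dropped just under 2 without S3, to a log2 fold change of 0.99, and to 0.72 with another background correction (normexp), which ends the call.

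Pparg gave the widest range of the 10 receptors, 2.26 on the log2 scale over the 6 rats. Its log2 signal was 11.32 for C1, 11.18 for C2 and 11.30 for rat C3, and 10.31 for S1, 9.55 for S2 and 9.06 for rat S3. The congenic rats were nearly level while the S rats spread over more than 1 log2 unit, and all 3 were below all congenic rats. Means were 11.26 ± 0.08 (SD, n = 3) and 9.64 ± 0.63 (SD, n = 3), a log2 fold change of 1.63 (SE 0.33, adjusted p = 0.228 from limma) or 3.09-fold. Leaving out each rat in turn gave 1.34 to 1.96, with 1.58 without S2 (adjusted p = 0.0382 from limma), and the slide block gave 1.68. The call held under every alternative that was run.

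The remaining PPAR, Ppard, was read by 2 probes. The brighter had 8.51 for C1, 7.78 for C2 and 7.98 for rat C3, and 7.60 for S1, 7.90 for S2 and 7.22 for rat S3, with S2 inside the congenic range. The other had 7.96 for C1, 7.30 for C2 and 7.48 for rat C3, and 7.08 for S1, 7.13 for S2 and 6.70 for rat S3, and there the strains did not overlap. Log2 fold changes were 0.51 (SE 0.28, adjusted p = 0.446 from limma) and 0.61 (SE 0.24, adjusted p = 0.38 from limma). Neither probe reached 2-fold. Without S2 they were 0.68 and 0.69. With the slide as a block they were 0.93 and 0.99, and C1 was the highest rat at both. Only the second had an unadjusted p under 0.05, and it lost this without C1 (0.42), without C3, without S1 or without S3, and with the methods' t-test.

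Rxra, the partner of the PPARs, LXR, FXR, PXR and the vitamin D receptor on DNA, had 7.43 for C1, 7.03 for C2 and 7.41 for rat C3 in log2 signal, and 6.37 for S1, 6.93 for S2 and 6.14 for rat S3. S2 was the highest of the S rats and 0.10 below the lowest congenic rat, C2. Its log2 fold change of 0.81 (SE 0.26, adjusted p = 0.333 from limma) was under 2-fold. Without S2 it became 1.04 (adjusted p = 0.0235 from limma), which is past 2-fold. Its unadjusted p rose above 0.05 without C1, C3, S1 or S3, when the log2 fold change was 0.74, 0.75, 0.76 and 0.64, and with the slide as a block (0.95).

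**Figure D3:**
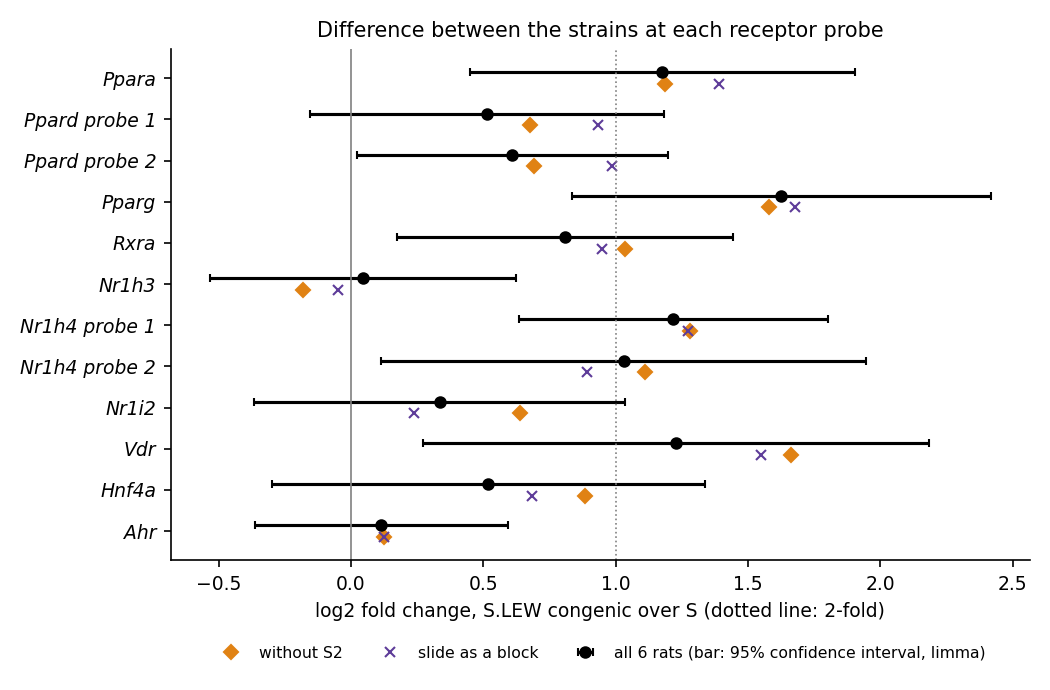
Log2 fold change of the S.LEW congenic over the S rats (horizontal axis) for the 12 probes, with the 95% confidence interval of limma over all 6 rats (black), the value without S2 (orange) and the value with the slide as a block (purple). The intervals of Pparg (0.84 to 2.42) and probe 1 of Nr1h4 (0.63 to 1.80) lie farthest above 0, and those of Ppard probe 1, Nr1h3, Nr1i2, Hnf4a and Ahr span 0.

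Nr1h4, the bile acid receptor FXR, was also called higher, at both of its probes. The brighter had 11.55 for C1, 11.32 for C2 and 11.62 for rat C3, against 10.58 for S1, 10.41 for S2 and 9.86 for rat S3. Here S2 was an ordinary S rat, between S1 and S3. The log2 fold change was 1.22 (SE 0.24, adjusted p = 0.223 from limma), from 1.01 to 1.37 with each rat left out, 1.28 without S2 (adjusted p = 0.0269 from limma) and 1.27 with the slide as a block, and the call was kept throughout. The dimmer probe had 9.95 for C1, 9.71 for C2 and 10.60 for rat C3, and 9.57 for S1, 9.22 for S2 and 8.38 for rat S3, a log2 fold change of 1.03 (SE 0.38, adjusted p = 0.358 from limma). At this probe the call was lost without C1 (1.099), without C3 (0.78), without S3 (0.69) with the slide as a block (0.89) and with normexp (0.96).

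Vdr, the vitamin D receptor, had 10.57 for C1, 10.14 for C2 and 10.03 for rat C3, and 8.62 for S1, 9.88 for S2 and 8.55 for rat S3. S1 and S3 were more than 1 log2 unit below every congenic rat, whereas S2 was 0.15 below the lowest of them. The log2 fold change was 1.23 (SE 0.40, adjusted p = 0.333 from limma), and 1.66 without S2 (adjusted p = 0.0101 from limma). The call did not survive without C1 (1.07), S1 (1.03) or S3 (0.996), or with the methods' t-test. The slide block gave 1.55, and slide 1 taken alone, at the same value, an unadjusted p above 0.05.

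Nr1i2, the PXR of drug metabolism, and Hnf4a, a receptor that gut epithelium needs for its mature state, showed the same split among the S rats. Nr1i2 had 10.95 for C1, 11.01 for C2 and 11.19 for rat C3, against 10.44 for S1, 11.32 for S2 and 10.38 for rat S3. Hnf4a had 8.53 for C1, 8.32 for C2 and 8.24 for rat C3, against 7.35 for S1, 8.58 for S2 and 7.60 for rat S3. In both, S1 and S3 were below every congenic rat and S2 was above every one. With all 6 rats the log2 fold changes were 0.33 (SE 0.29, adjusted p = 0.588 from limma) and 0.52 (SE 0.34, adjusted p = 0.502 from limma), neither beyond the spread between rats. Without S2 they were 0.64 (adjusted p = 0.0393 from limma) and 0.89 (adjusted p = 0.0254 from limma), so the result for these receptors depends on 1 rat. The slide block, which keeps S2, gave 0.24 and 0.68.

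For the last receptors no difference beyond the spread between rats was found. Nr1h3, the oxysterol receptor, had 10.24 for C1, 10.42 for C2 and 10.34 for rat C3, and 10.54 for S1, 9.84 for S2 and 10.49 for rat S3, and S2 was the lowest of all rats. Its log2 fold change of 0.05 (SE 0.24, adjusted p = 0.935 from limma) turned to -0.18 without S2 and to -0.05 with the slide as a block. Ahr had 7.25 for C1, 7.31 for C2 and 7.16 for rat C3, and 7.37 for S1, 7.15 for S2 and 6.85 for rat S3, with a log2 fold change of 0.11 (SE 0.20, adjusted p = 0.787 from limma). It was 0.13 without S2, 0.13 with the slide as a block and -0.02 without S3. The 95% confidence intervals were -0.53 to 0.62 for Nr1h3 and -0.36 to 0.59 for Ahr. A 2-fold difference of either gene lies outside its interval. Ahr also had the narrowest range of the 10 receptors, 0.52 over the 6 rats.

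S2 lay differently from receptor to receptor, a description made after the values were seen. Against the mean of S1 and S3, S2 differed by 0.03 for Ppara, -0.14 for Pparg and 0.19 for Nr1h4 on the log2 scale, and for these receptors S2 read low with its strain. It was higher than that mean by 1.30 for Vdr, 1.099 for Hnf4a, 0.91 for Nr1i2 and 0.68 for Rxra, and by 0.48 for Ppard. For Nr1h3 the value was -0.68, and for Ahr, which did not separate the strains, 0.03. Lymphoid markers were high in S1 and S3 and low in S2, that is, opposite to Vdr, Hnf4a, Nr1i2, Rxra and Ppard and the same way as Nr1h3, and smooth muscle markers were higher in S2 than in S1 or S3. The epithelial sum was lower in all 3 S rats than in every congenic rat, as were Ppara, Pparg, Nr1h4, Rxra and Vdr. Whether these cell types account for the receptor values was not tested.

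Exact two-sided permutation tests, each on the brighter or only probe of a gene, gave the smallest p that 3 rats against 3 allow, 0.10, for Ppara, Pparg, Rxra, Nr1h4 and Vdr. The p was 0.2 for Ppard, 0.4 for Nr1i2 and Hnf4a, 0.6 for Ahr and 1 for Nr1h3.

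Of 13 related receptors listed, 9 had a value and 0 were called, against 3.79% of all genes higher and 2.62% lower. Further members of the nuclear receptor family were not examined. Without S2, 1 of the 9 was called higher (Rxrg, 1.19) and 0 lower, against 11.3% and 8.27% of all genes. With all rats 2 had an unadjusted p under 0.05 from limma, both higher, against 10.1% of all genes. They were Rxrg and Nr5a2, named after their values were seen. The median log2 fold change of the 9 was 0.32, and 8 were above 0. Rxrb, the retinoid X receptor that is present in most tissues, had 10.81 for C1, 10.69 for C2 and 10.82 for rat C3, and 11.10 for S1, 10.52 for S2 and 10.60 for rat S3. Its log2 fold change was 0.04 (SE 0.21) and turned to -0.07 without S2 and -0.03 without S3. Rxrg gave 0.98 (SE 0.24), just under 2-fold, and Nr5a2 (LRH-1), a receptor of gut crypts and liver, gave 0.75 (SE 0.20).

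Of 5 coregulators with a value among 11 listed, 1 was called higher, against 3.79% of all genes. Ppargc1b, a coactivator that works with PPARs and estrogen-related receptors in mitochondrial metabolism, had 10.90 for C1, 10.66 for C2 and 11.14 for rat C3, against 9.65 for S1, 10.46 for S2 and 9.44 for rat S3. The strains did not overlap, and the log2 fold change was 1.05 (SE 0.31, adjusted p = 0.31 from limma). It fell under 2-fold without C3 (0.93), without S1 (0.95) or without S3 (0.84), and was 1.35 without S2. With normexp it was 0.97, and with the slide as a block (1.04) the unadjusted p was above 0.05. Of the 5 partners and chaperones of Ahr, 0 had an unadjusted p under 0.05, and Arnt, with which Ahr binds DNA, gave 0.17 (SE 0.24). The direction of Arnt turned without S3 (-0.05).

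Targets were taken from lists of genes that each receptor is known to control. Together they held 94 genes, of which 71 had a value. Of these, 8 were called higher and 3 lower (3.79% and 2.62% of all genes), 20 had an unadjusted p under 0.05 on the higher and 4 on the lower side (10.1% and 4.4% of all genes), and 24 stood wholly above and 4 wholly below the S rats (14.2% and 5.01%). The median log2 fold change was 0.32. Without S2, 16 had an adjusted p under 0.05 from limma on the higher and 10 on the lower side, where all genes gave 14.1% and 11.6%, so that the lower share is near that of all genes. Fewer were called higher without C1 (4) or S3 (4). The 3 called lower became 1 without C1, 0 without C2, S1 or S3, 9 without S2, and 0 with the slide as a block. By the methods' t-test Adipoq, Abcc3, Cldn2, Abcg5 and Aldh3a1 were not called. The medians of the lists ran from -0.58 (Nr1h3) to 0.78 (Pparg). A single call in a short list is not read here as a result about its receptor.

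**Figure D4:**
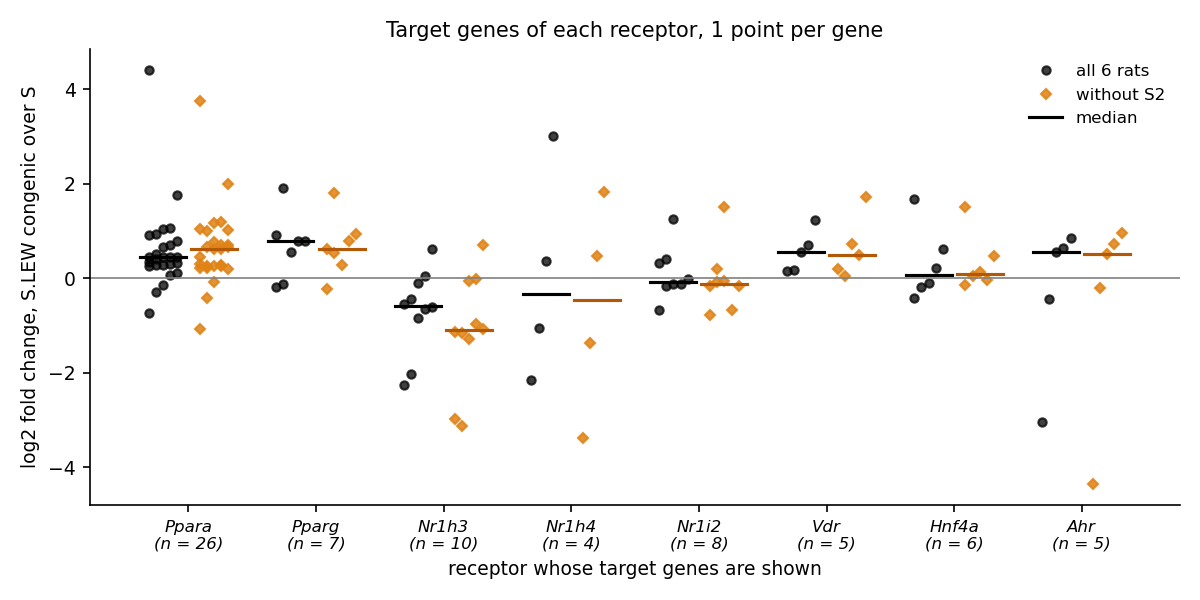
Log2 fold change of the S.LEW congenic over the S rats (vertical axis) for each gene on the target list of each receptor (horizontal axis, with the number of genes), over all 6 rats (black) and without S2 (orange), with a line at the median. The median of the Nr1h3 targets was -0.58 over all rats and -1.10 without S2, and that of the Ppara targets 0.45 and 0.62.

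Of 26 tested targets of Ppara, 4 were called higher and 0 lower, 10 had an unadjusted p under 0.05, all higher, and 23 had a log2 fold change above 0, with a median of 0.45. Among all 12418 genes, 6575 had a log2 fold change above 0, 10.1% had such a p on the higher side and 3.79% were called higher. Cpt1a, which admits long-chain fatty acids to the mitochondrion, had 11.98 for C1, 11.53 for C2 and 11.29 for rat C3, against 10.51 for S1, 10.77 for S2 and 10.32 for rat S3. Every S rat was below every congenic rat, and the log2 fold change was 1.07 (SE 0.25, adjusted p = 0.262 from limma). Ehhadh, an enzyme of peroxisomal oxidation, had 7.96 for C1, 7.60 for C2 and 7.37 for rat C3, against 6.56 for S1, 6.86 for S2 and 6.38 for rat S3, again with no overlap, and a log2 fold change of 1.04 (SE 0.23, adjusted p = 0.248 from limma). Ehhadh was 0.63 with normexp. Both went under 2-fold without C1 (0.88 and 0.89) and without S3 (0.96 and 0.93).

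Fabp1, the liver-type fatty acid binding protein, had 11.51 for C1, 11.13 for C2 and 11.80 for rat C3, and 10.04 for S1, 5.76 for S2 and 5.43 for rat S3. S1 was far nearer to the congenic rats than S2 and S3 were, so the log2 fold change of 4.41 (SE 1.19, adjusted p = 0.283 from limma) was 5.89 without S1, 3.75 without S2 and 3.58 without S3. With the slide as a block it was 4.44, with an unadjusted p above 0.05. Acadvl, Cpt2, Acadl, Pex11a, Slc25a20 and Hadhb, further genes of fatty acid oxidation and peroxisomes that were picked out here by their p, had log2 fold changes from 0.52 (Hadhb) to 0.94 (Cpt2). Angptl4, another textbook target, stood at -0.73 and Cyp4a8 at -0.15, both also named after their values were seen, so the list did not move as 1 block.

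The promoters of Fabp1 and of Fabp2, a called gene on the Hnf4a list, are shown because they alone among the 12 named targets with a promoter in the RefSeq table (GRCr8) hold a direct repeat of the kind that PPAR and Hnf4a pairs bind. The search was for the half-site AGGTCA repeated in the same direction with 1 base between, on both strands, with at most 1 letter off in each half-site, in the 250 bases before the start. Of all 33469 promoters of that length, 1.85% hold such a repeat, and 0 of the 8 receptors with a promoter in the table do. Capitals mark the repeat, which lies 77 to 65 bases before the start of Fabp1 (chr4:104749090-104749339, plus strand) and 106 to 94 bases before that of Fabp2 (chr2:213724379-213724628, plus strand). Both read on the opposite strand. A match of letters is a description and not a measured binding site.
Fabp1: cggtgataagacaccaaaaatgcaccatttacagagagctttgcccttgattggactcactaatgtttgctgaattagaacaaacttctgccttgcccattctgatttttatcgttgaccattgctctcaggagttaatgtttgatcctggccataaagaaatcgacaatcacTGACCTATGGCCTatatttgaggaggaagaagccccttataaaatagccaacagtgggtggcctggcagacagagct
Fabp2: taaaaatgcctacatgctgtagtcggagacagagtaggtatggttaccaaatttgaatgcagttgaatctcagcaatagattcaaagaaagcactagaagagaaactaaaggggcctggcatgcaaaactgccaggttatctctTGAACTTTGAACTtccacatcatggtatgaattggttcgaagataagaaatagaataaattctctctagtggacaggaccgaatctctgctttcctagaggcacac

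The receptors themselves have promoters of unlike make-up. Counted over the same 250 bases, CG pairs numbered 52 in Rxra, 32 in Ahr and 27 in Ppara, and 13 in Vdr. There were 5 at each of 2 starts of Hnf4a and 3 in both Nr1h3 and Nr1i2, and the 2 starts of Pparg had 13 and 2. The median of all promoters was 5, with quartiles of 2 and 15. Ppara (chr7:118712357-118712606, plus strand) and Vdr (chr7:130916758-130917007, minus strand) are shown, as called receptors with a single start in the table, with CG pairs in capitals.
Ppara: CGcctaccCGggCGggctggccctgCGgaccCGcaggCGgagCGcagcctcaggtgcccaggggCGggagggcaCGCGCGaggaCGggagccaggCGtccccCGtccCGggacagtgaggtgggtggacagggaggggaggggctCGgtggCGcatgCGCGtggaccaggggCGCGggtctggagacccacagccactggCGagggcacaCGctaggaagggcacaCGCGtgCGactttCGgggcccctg
Vdr: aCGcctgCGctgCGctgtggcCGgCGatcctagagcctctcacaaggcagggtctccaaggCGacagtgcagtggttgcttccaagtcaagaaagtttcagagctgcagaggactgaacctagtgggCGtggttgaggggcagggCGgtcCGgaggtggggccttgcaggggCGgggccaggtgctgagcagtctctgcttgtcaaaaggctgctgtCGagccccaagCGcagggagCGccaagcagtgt

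Of 7 tested targets of Pparg, 1 was called higher, against 3.79% of all genes. An unadjusted p under 0.05 from limma was reached by 4, all higher, against 10.1% of all genes. The median log2 fold change was 0.78. Fabp4, the fatty acid binding protein of adipocytes, had 8.77 for C1, 8.96 for C2 and 9.02 for rat C3, against 7.65 for S1, 8.42 for S2 and 8.30 for rat S3, a log2 fold change of 0.79 (SE 0.25). Adipoq, the adipocyte hormone adiponectin, had 7.75 for C1, 8.40 for C2 and 9.91 for rat C3, against 7.33 for S1, 6.56 for S2 and 6.44 for rat S3. No rats overlapped for either, but C3 was far above C1 and C2 for Adipoq, whose log2 fold change of 1.91 (SE 0.57, adjusted p = 0.315 from limma) was 1.30 without C3 and 0.98 with the slide as a block, where it was no longer called. Of the 7 genes, 3 (Fabp4, Adipoq and Cidec) are also on the adipocyte marker list. That list had 6 genes measured, with Plin1 and Plin4 without a value. It summed to 10.63, 11.12 and 11.86 in C1 to C3 and 10.00, 9.80 and 9.89 in S1 to S3, higher in every congenic rat. Of the 6, 2 were called higher, against 3.79% of all genes. Its most abundant gene, Cfd, read 9.42, 10.12 and 10.98 against 8.83, 8.31 and 8.68. Lep was well above background on 3 arrays. The part of fat cells in the Pparg signal was not tested.

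Targets of Nr1h3 export cholesterol or make fatty acids. Of 10 tested, 0 were called higher and 1 lower, against 3.79% and 2.62% of all genes. An unadjusted p under 0.05 from limma was reached by 1, on the lower side, against 4.4% of all genes. In 0 did the strains stand apart, against 14.2% higher and 5.01% lower. The median log2 fold change was -0.58, or -1.10 without S2. Abca1, the cholesterol exporter, had 7.17 for C1, 7.38 for C2 and 6.97 for rat C3, against 8.49 for S1, 6.16 for S2 and 8.15 for rat S3. S1 and S3 were above all congenic rats and S2 was below them, which left a log2 fold change of -0.43 (SE 0.60, adjusted p = 0.735 from limma) that was -1.15 without S2 (adjusted p = 0.0199 from limma) and 0.01 without S1. Without S2, 6 of the 10 had an adjusted p under 0.05 from limma, all lower in the congenic rats, and 5 were called lower, against 11.6% and 8.27% of all genes. Abcg1, another cholesterol exporter, was named after its values were seen. It had 8.24 for C1, 8.52 for C2 and 8.68 for rat C3, against 11.88 for S1, 8.30 for S2 and 11.32 for rat S3. For Abcg1 S2 was among the congenic rats, and the log2 fold change was -2.02 (SE 0.90), -3.12 without S2 and -1.33 without S1.

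The called gene, Abcg5, a sterol transporter, was well above background on 0 of 3 congenic arrays and read 5.68 for S1, 4.31 for S2 and 7.29 for rat S3, well above background on all 3. Against the lowest signal of a probe well above background on each congenic array the congenic rats were at least 1.64-fold lower, 2.71-fold without S2, 1.36-fold without C1, and no bound above 1 was left without S3. The call was lost without C1, C2, S1 or S3, with normexp and with the slide as a block. With Abcg5 at its bound the median of the list is the same. Limma's adjusted p was 0.354. Nr1h3 is abundant in macrophages, as are several of these targets. Of 8 macrophage markers, 2 were called higher and 1 lower, against 3.79% and 2.62% of all genes. Their sum was 12.44, 12.84 and 13.08 in C1 to C3 and 14.35, 12.21 and 13.99 in S1 to S3. The most abundant, C1qb, read 11.04, 11.40 and 11.71 against 12.99, 10.88 and 12.63. Without S2, 2 of these markers were called higher and 5 lower, against 11.3% and 8.27% of all genes. On the same fit 1 had an adjusted p under 0.05 from limma on the higher and 5 on the lower side, against 14.1% and 11.6%. Macrophage and lymphoid sums were high in S1 and S3, as were Abca1 and Abcg1, and their part in the difference was not tested.

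Only 4 targets of the bile acid receptor Nr1h4 had a value, 0 called higher and 1 lower, against 3.79% and 2.62% of all genes. Nr0b2 (SHP), a repressor that FXR induces, gave 5.65 for C1, 6.24 for C2 and 6.11 for rat C3, and 5.77 for S1, 5.83 for S2 and 5.29 for rat S3, a log2 fold change of 0.37 (SE 0.25). Abcb4, the phospholipid exporter, was well above background on 2 of 3 congenic arrays and had 6.08 for C1, 5.82 for C2 and 6.10 for rat C3, against 7.61 for S1, 6.38 for S2 and 7.14 for rat S3. All S rats were higher. Its call as lower includes C2, which was not well above background, so the fold over all rats is not given. Without C2 the log2 fold change was -0.95 and the gene was not called, nor was it without S1 or S3, with the slide as a block or with normexp. Fabp6, the bile acid binding protein of the ileum, picked out here after its values were seen, had 6.77 for C1, 7.79 for C2 and 7.18 for rat C3, against 9.91 for S1, 6.95 for S2 and 11.32 for rat S3. S1 and S3 were above every congenic rat and S2 was among them. The remaining target, Slc51a, named to complete the list, a bile acid exporter subunit that was well above background on 3 congenic and 2 S arrays, read 9.01 for C1, 8.90 for C2 and 9.63 for rat C3, against 9.67 for S1, 3.78 for S2 and 5.06 for rat S3. S1 was the highest of all rats there, so the strains overlapped, and S2 and S3 were far below the congenic rats. It was not called, and no fold is given, since S2 was not well above background.

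Of 8 targets of Nr1i2, 1 was called higher and 0 lower, against 3.79% and 2.62% of all genes, with a median of -0.07. Cyp3a9, a cytochrome P450 of the subfamily that PXR is best known for, had a log2 fold change of -0.16 (SE 0.39), within the spread between rats, and turned to 0.18 without C3 and 0.25 with the slide as a block. Abcc3, an exporter of conjugated compounds, had 9.75 for C1, 8.41 for C2 and 9.01 for rat C3, against 7.91 for S1, 8.35 for S2 and 7.17 for rat S3. The lowest congenic rat was C2, just above S2, and the log2 fold change was 1.25 (SE 0.44, adjusted p = 0.348 from limma). Leaving out C1 (0.90), C3 (1.27) or S3 (0.93) ended the call, which the slide block (1.94) did not.

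Of 5 targets of Vdr, 1 was called higher, against 3.79% of all genes, with a median of 0.55. S100g, the calcium-binding calbindin of the gut, had 11.01 for C1, 10.47 for C2 and 12.49 for rat C3, and 11.74 for S1, 10.20 for S2 and 9.93 for rat S3, and the log2 fold change of 0.70 (SE 0.67) lay within the spread. Cldn2, a claudin that forms cation pores, had 10.85 for C1, 11.55 for C2 and 10.48 for rat C3, against 9.19 for S1, 10.70 for S2 and 9.29 for rat S3. S2 was above C3, so the strains overlapped. The log2 fold change was 1.23 (SE 0.48, adjusted p = 0.374 from limma), or 1.72 without S2 (adjusted p = 0.0247 from limma), and without C1, C2, S1 or S3 the call was lost, at 1.29, 0.94, 0.97 and 1.01, as it was with the slide as a block (1.13). A second probe of Cldn2 was also called higher, with 1.32 (SE 0.42).

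Of 6 targets of Hnf4a, 1 was called higher, against 3.79% of all genes, with a median of 0.06. Fabp2, the intestinal fatty acid binding protein whose promoter is printed above, had 10.99 for C1, 10.51 for C2 and 10.14 for rat C3, against 9.89 for S1, 8.49 for S2 and 8.21 for rat S3. No S rat reached the congenic range, and the log2 fold change was 1.69 (SE 0.48, adjusted p = 0.3 from limma), from 1.36 to 2.20 with each rat left out and 2.13 with the slide as a block. S2 was low for Fabp2, unlike for Hnf4a itself, where it was the highest rat. Apoa4, an apolipoprotein of absorbing gut, gave -0.10 (SE 0.29) and turned to 0.14 without S2 and 0.19 with the slide as a block.

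Among 5 targets of Ahr, 0 were called higher and 1 lower, against 3.79% and 2.62% of all genes. An unadjusted p under 0.05 from limma on the higher side was reached by 2, against 10.1% of all genes. They were Nqo1 with 0.84 and Ugt1a6 with 0.64, named after their values were seen. Cyp1b1, a cytochrome P450 that Ahr induces, had a log2 fold change of -0.45 (SE 0.34) and overlapping strains, and 0.11 with the slide as a block. Aldh3a1, an aldehyde dehydrogenase, had 6.49 for C1, 6.54 for C2 and 6.21 for rat C3, against 10.78 for S1, 6.81 for S2 and 10.77 for rat S3. S2 was only 0.27 above the highest congenic rat while S1 and S3 were over 4 log2 units higher. Its log2 fold change was -3.04 (SE 1.06, adjusted p = 0.348 from limma), and -4.36 without S2 (adjusted p = 0.000691 from limma). It was -2.37 without S1 and -2.38 without S3, and the call was lost with any rat but S2 left out and with the slide as a block (-2.96).

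Finally, the genes nearest in pattern were sought for the 3 receptors of widest range, by the root mean square difference of mean-centered log2 signals over the 6 rats, among 10772 genes well above background on all arrays. Nearest to Pparg were Aldh1b1 (0.14), Lmx1a (0.15) and Chgb (0.15), and Aldh1b1 had 10.75, 10.82 and 10.64 in C1 to C3 and 9.56, 9.12 and 8.40 in S1 to S3. Nearest to Vdr were Abhd14b (0.12), Trim36 (0.13) and Coro6 (0.16), and Abhd14b had 9.15, 8.78 and 8.89 in C1 to C3 and 7.38, 8.42 and 7.39 in S1 to S3. For Ppara they were Slc29a1 (0.14), Cdkl1 (0.15) and Klk8 (0.16), with 10.89, 10.41 and 11.29 in C1 to C3 and 9.83, 9.86 and 9.27 in S1 to S3 for Slc29a1. The next gene after these 3 was Nr1h4 (0.17), so that a pair of the called receptors ran close to each other over these rats. Nearness over 6 rats of which S2 stands apart is a description only.

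The other marker lists bear on what the pieces of colon held. Those of striated muscle summed to 14.26, 14.20 and 14.53 in C1 to C3 and 13.25, 15.30 and 14.18 in S1 to S3. Ckm was the most abundant (13.89, 13.87 and 14.21 against 12.79, 14.87 and 13.86). Myh4 had no value, and Myh1, Myh2 and Mybpc1 were well above background on 3 arrays each. Of the 7 measured, 3 were called lower, against 2.62% of all genes. Those of enteric neurons and glia summed to 13.72, 13.31 and 14.19 in C1 to C3 and 12.28, 14.10 and 12.77 in S1 to S3, with Uchl1 the most abundant (12.95, 12.29 and 13.42 against 10.97, 13.35 and 11.78), and 0 of 7 were called. Without S2, 2 of these were called higher and 0 lower, against 11.3% and 8.27% of all genes. Actg2, the most abundant of the 7 smooth muscle markers measured, read 17.53, 17.56 and 17.62 against 16.19, 17.62 and 17.18, and Synpo2 had no value. Muscle and nerve sums were lowest in S1 on every list, and the part of these tissues in the receptor values was not tested.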

How the data were processed

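Colon RNA of 6 separate rats was read on 6 single-color Agilent arrays. The authors made the spot intensity values with Agilent Feature Extraction 11.0.1.1, and the deposited log2 values by quantile normalization of these intensities in GeneSpring, keeping probes detected in at least 3 of 6 samples. The strains were compared with limma 3.58.1 (R 4.3.3) on all 23997 deposited probes, with Benjamini-Hochberg adjustment over all of them. A fit of this kind was tested on simulated data. Probe accessions were matched to RefSeq gene names (GRCr8), which named 18005 of 30367 probes for 15168 genes. Each gene was read by its probe of highest mean signal. Per-gene permutation tests were exact and two-sided. Well above background is the scanner software's own call. By rule the text names the 10 receptors, the first measured gene of each list, up to 4 called genes per list, the 3 genes nearest to each of the 3 receptors of widest range, and each marker list's most abundant gene. Some genes that this rule takes are not reported, and genes outside it are marked where they stand. Members and lists were chosen with earlier results of these data known. Alternatives were other scalings, background corrections, filters, tests and blocks, and leaving out each rat. Promoters are from the RefSeq table of GRCr8. Figures were drawn with matplotlib 3.10.9.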

Additional observations from a re-analysis of the deposited data

How the results depend on the processing

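Of the receptor results under the 17 alternatives, 164 kept both their direction and their side of an unadjusted p of 0.05, 28 lost and 7 gained it, and 5 turned in direction. Of the other named genes, 309 results kept both, 43 lost and 5 gained the threshold, and 15 turned. The cause was not tested for any of the changes below, other than that a fit of fewer rats or a single slide has fewer arrays. With the array weights the fit gave a convergence warning, and 12474 probes had an adjusted p under 0.05 from limma. That count was 5553 without S2, 41 without S1, 1 with scaling to the 75th percentile and 0 under the other alternatives.

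Of all probes, 776 were called higher and 562 lower. Called higher were 359 with normexp, 515 with the methods' test, 2090 with array weights and 443 within slide 1, and 477 to 2397 with a rat left out (without S3 and without S2). Called lower were 342 among probes well above background on all 6 arrays, 178 with the methods' test, 1744 with array weights, 227 with the slide as a block, 187 within slide 1, and 192 to 1725 with a rat left out. Receptors called higher were 2 to 5 with a rat left out, and 0 were called lower under any alternative. Targets called higher were 5 with the methods' test and 4 to 11 with a rat left out. Targets called lower were 1 with normexp, 1 among probes well above background on all 6 arrays, 1 with the methods' test, 6 with array weights, 0 with the slide as a block, 0 within slide 1 and 0 to 9 with a rat left out.

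Log2 fold changes of receptors whose p crossed 0.05 or whose direction turned were as follows. With array weights they were 0.83 for Ppard probe 1, -0.15 for Nr1h3, 0.65 for Nr1i2, 0.76 for Hnf4a and 0.39 for Ahr. With the slide as a block they were 0.93 for Ppard probe 1, and, as within slide 1, 0.95 for Rxra, -0.050 for Nr1h3 and 0.89 for Nr1h4 probe 2. Vdr was 1.55 within slide 1. Scaling to the 75th percentile gave 0.59 for Ppard probe 2 and 0.80 for Rxra, and normexp gave 0.40 for Ppard probe 2. With the methods' test, which leaves the value as it is, p passed 0.05 for Ppard probe 2 (0.61), Nr1h4 probe 2 (1.03) and Vdr (1.23). With a rat left out the values ran from 0.42 to 0.75 for Ppard probe 2, 0.64 to 1.04 for Rxra, -0.18 to 0.17 for Nr1h3, 0.69 to 1.29 for Nr1h4 probe 2, 0.17 to 0.64 for Nr1i2, 0.996 to 1.66 for Vdr, 0.27 to 0.89 for Hnf4a and -0.021 to 0.24 for Ahr.

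Among other named genes, direction turned for the following, given where rats were left out as the lowest and highest value: Rxrb (-0.073 without S2, 0.22 without S1), Arnt (-0.046 without S3, 0.29 without S2), Abca1 (0.014 without S1, -1.15 without S2), and Cyp3a9 (0.25 with the slide as a block and within slide 1, 0.18 without C3, -0.45 without S1). It also turned for Apoa4 (0.16 with array weights, 0.19 with the slide as a block and within slide 1, 0.14 without S2, -0.25 without C1) and Cyp1b1 (0.11 with the slide as a block and within slide 1).

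Each cage held a rat of either strain, per the study's methods, but which rats shared a cage is not given in the sources used here, and the labels do not tie replicate numbers to cages. The deviations of rats of the same number from their strain's mean correlated at -0.02, -0.13 and -0.06 over probes, so the rats were not treated as pairs, and an effect of shared cages was not tested. With the replicate block, 2563 probes had an unadjusted p under 0.05, against 3115, and 0 an adjusted one. The p passed 0.05 for Ppard probe 2 (0.61), Rxra (0.81) and Nr1h4 probe 2 (1.03).

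The share of probes well above background was 80.9%, 73.8% and 78.5% in C1 to C3 and 86.3%, 83.2% and 87.6% in S1 to S3. Probes near background, among them Abcg5 in the congenic rats, therefore give no reliable fold change. With 3 rats per strain the interval of each receptor is wide, and in the slide block C1 is the lone congenic rat that counts.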
